A study of Mus musculus with 4 samples.

Results

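Endothelial cells of subcutaneous tumors of the mouse lung cancer line LLC (Lewis lung carcinoma) were read from single-cell RNA sequencing at 72 h after hypofractionated radiotherapy. The members were chosen by measured values. A barcode counted as an endothelial cell when the 6 genes Cdh5, Plvap, Kdr, Emcn, Esam and Egfl7 together had at least 3 unique molecular identifiers (UMIs, counts of single mRNA molecules) from at least 2 of these genes. It also had to have at most 1 UMI of Rhox5, a gene that marks the tumor cells, none of the leukocyte gene Ptprc and at most 2 UMIs of the macrophage genes C1qa, C1qb and C1qc. The rule found 245 endothelial cells among 55058 kept barcodes in 4 libraries, and the levels of those genes are therefore a description and not a result. All tumors grew in C57/BL6N mice aged 6 to 8 weeks, and treatment started at a mean tumor volume of about 100 mm3. The radiotherapy (RT) group comprised RT1, RT2 and RT3, each 1 tumor given 8 Gy on each of days 7 to 9 after injection (24 Gy in total), whereas the mock-treated control (NT) was 1 library of 3 pooled tumors.

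Endothelial cells line the blood vessels, through which oxygen, nutrients and leukocytes reach a tumor. Growing vessels are led by tip cells, which answer vascular endothelial growth factor (VEGF), and mature into arterial, capillary and venous segments with their own gene programs. Ionizing radiation damages DNA and stabilizes p53, a transcription factor whose targets halt the cell cycle, and irradiated vessels are known to display adhesion molecules for leukocytes.

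The endothelial cells held 180145 UMIs in NT (33 cells), 282286 in RT1 (79 cells), 530866 in RT2 (105 cells) and 102099 in RT3 (28 cells). The median cell had 3097 UMIs in NT, 2297 in RT1, 3864 in RT2 and 2640 in RT3, and the largest NT cell alone gave 12.4% of the UMIs of that library. Because NT was a single library, its spread between tumors is unknown, and the groups were compared without a test. A permutation of 1 library against 3 could not give a p below 0.25. Levels are CPM, each gene's share of the UMIs scaled to 1000000, over the UMIs summed over the endothelial cells of a library, and intervals cover counting error only.

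The cells carried the endothelial program beyond the 6 genes that chose them. Pecam1, the junction protein CD31, averaged 1098 ± 431 CPM (SD, n = 4 libraries), against 0.5 CPM in fibroblast-like, 6.3 CPM in macrophage-like and 0.3 CPM in tumor-like cells. Tie1, an angiopoietin co-receptor, averaged 327 CPM against at most 1.3 CPM in those populations, and Flt1, VEGF receptor 1, averaged 815 CPM against at most 10.3 CPM. Of the 28 genes of a pan-endothelial list, which holds the 6 genes of the rule, 26 were measured well enough to be compared. Their median log2 ratios over NT were 0.44 in RT1, 0.54 in RT2 and 0.29 in RT3. In all RT libraries 15 lay above NT and 4 below, against 27.4% and 31.7% of all genes compared. At 1500 UMIs a cell, 27.3% of NT cells had a Pecam1 UMI against 84.0%, 75.3% and 75.0% in RT. The ratios of endothelial lists below are not adjusted for this. Cd34, a sialomucin of vessels and of stromal cells, was less restricted to endothelial cells, with 1436 CPM there and 1001 CPM in fibroblast-like cells.

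**Figure D1:**
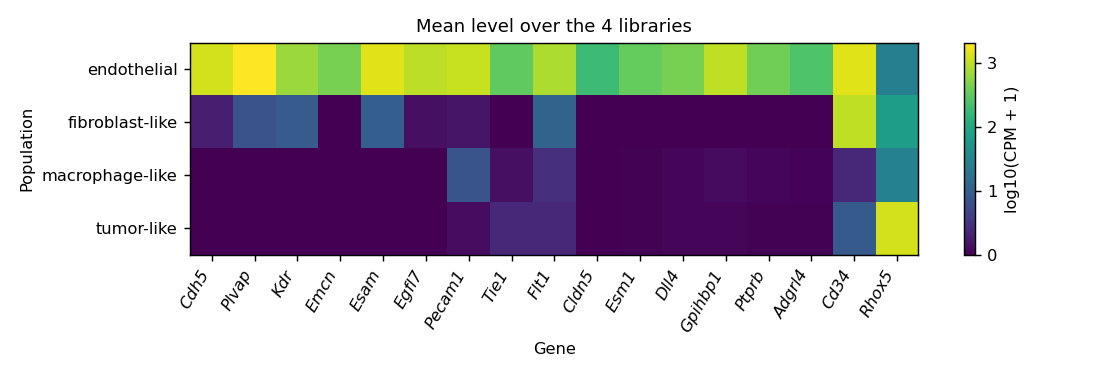
Mean level over the 4 libraries (color, log10 of CPM + 1) of 17 genes (columns) in endothelial, fibroblast-like, macrophage-like and tumor-like cells (rows). The endothelial row is high throughout and low in Rhox5, which reached 1260 CPM in tumor-like cells against 25.8 CPM in endothelial cells. The first 6 genes and Rhox5 were used to choose the cells.

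Among genes of at least 100 CPM, the most restricted to these cells were Emcn, a sialomucin, and Cldn5, a tight junction protein. Grrp1, Esm1, Chga, Tmem252, Gpihbp1, Dll4, Clca2, Ptprb, Adgrl4 and Egfl7 followed. Esm1, a proteoglycan of tip cells, averaged 344 CPM in endothelial cells and 0.1 CPM in tumor-like cells. Gpihbp1, which carries lipoprotein lipase to the capillary surface, averaged 1025 CPM and at most 0.3 CPM elsewhere. Chga, the secretory granule protein chromogranin A, reached 1627 CPM in NT, 549 in RT1, 522 in RT2 and 843 in RT3. It was seen in 48.5% of NT cells and in 19.0%, 14.3% and 10.7% of RT1, RT2 and RT3 cells (40.9%, 14%, 11% and 8.33% at a common depth of 1500 UMIs), and 1 RT3 cell held 80 of the 86 UMIs of that library. These levels were read from the same cells that the rule selected and are a description.

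RNA of other cell types was present at unequal levels in the endothelial cells. The list of 6 tumor cell markers summed to 3482 CPM in NT, 4200 in RT1, 2983 in RT2 and 3048 in RT3, led by S100a6, against 10530 CPM in tumor-like and 6875 CPM in fibroblast-like cells. Markers of pericytes and smooth muscle, the cells that wrap vessels, summed to 1938 CPM in NT, 1113 in RT1, 288 in RT2 and 3263 in RT3, led by Rgs5. Fibroblast markers summed to 672, 833, 164 and 1891 CPM in the same order, led by Col6a1, and 3 of 12 were at 0 in all libraries. Both lists were thus lowest in RT2 and highest in RT3. Macrophage and monocyte markers summed to 44.4 CPM in NT, 369 in RT1, 205 in RT2 and 78.4 in RT3, against 42681 CPM in macrophage-like cells. Their most abundant gene, Lyz2, had 4, 61, 39 and 6 UMIs, whereas Adgre1 had at most 1 UMI in a library. In RT2 alone, hemoglobin genes were seen, led by Hbb-bs with 71 UMIs, all of them in 1 cell.

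Before the leukocyte and tumor limits were applied, 62 barcodes of NT, 107 of RT1, 219 of RT2 and 45 of RT3 met the endothelial count. The Rhox5 limit removed 45.2% of them in NT, 25.2% in RT1, 47.5% in RT2 and 37.8% in RT3. These barcodes can be endothelial cells together with tumor cells or tumor RNA, which were not told apart, and no further doublet removal was made. At the edge of the rule, 3, 6, 7 and 1 members had exactly 3 UMIs of the 6 genes, and 2, 11, 6 and 4 barcodes with 2 UMIs of 2 genes lay just outside. Likewise 2, 12, 16 and 2 members had 1 UMI of Rhox5, and 1, 3, 3 and 2 barcodes with 2 UMIs were left out. No barcode was a member in more than 1 library, although pairs of libraries shared 182 to 277 deposited barcodes and 14 member barcodes also occurred in another library.

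Endothelial cells were rare in every tumor, and their share did not separate the groups. They formed 0.331% of kept barcodes in NT (exact 95% Clopper-Pearson interval 0.228 to 0.464), 0.526% in RT1 (0.416 to 0.655), 0.700% in RT2 (0.573 to 0.847) and 0.186% in RT3 (0.124 to 0.269). RT1 and RT2 thus lay above NT and RT3 below it. The RT mean was 0.471% ± 0.262 (SD, n = 3), and the difference of 0.140 percentage points was smaller than that SD. Of the barcodes that were not tumor-like, endothelial cells made up 0.662% in NT, 0.857% in RT1, 1.03% in RT2 and 0.321% in RT3, in the same order.

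**Figure D2:**
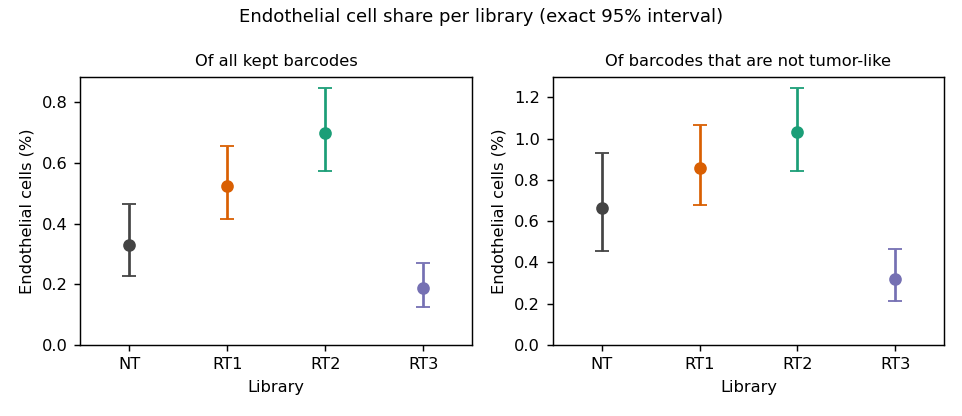
Share of endothelial cells in each library (points) with exact 95% Clopper-Pearson intervals (bars), as percent of all kept barcodes (left) and of barcodes that were not tumor-like (right). In both panels RT1 and RT2 lie above NT and RT3 lies below it.

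Of 18596 genes common to the libraries, 2897 had enough UMIs in endothelial cells to be compared. The level was at least 2-fold higher than NT in every RT library for 107 genes (3.69% of those compared) and at least 2-fold lower in every RT library for 41 genes (1.42%). For 33 (1.14%) and 28 (0.967%) of them, the exact 95% Poisson intervals were also apart from that of NT in all 3 RT libraries. Among the 107 higher genes, 6 had no UMI in NT and 15 had 1 to 3. A comparison needed 10 UMIs expected in NT from the pooled share. These genes, and any other higher gene with fewer than 10 NT UMIs, were thus compared only because they were high in RT. This applies to called members of the lists below as well. The RT libraries gave most of the UMIs, and the limit on low counts therefore let in fewer genes that were low in RT. When NT and the RT mean weighed the same in that limit, 80 genes were higher and 65 lower. Without RT3, the smallest library, the counts were 187 and 71, without RT2 65 were higher, and without RT1 67 were lower. Without cells of over 3 times the median UMIs they were 68 and 13.

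Most of the compared p53 targets lay above NT in every RT library. Of 28 listed genes 13 were compared, 6 were at least 2-fold higher in every RT library (3.69% of all genes), none was lower, and 12 lay above NT in all 3 RT libraries, against 27.4% of all genes compared. Of the 6, Gdf15 and Zmat3 had 0 and 3 UMIs in NT. All but Cdkn1a had fewer NT UMIs than the 10 expected that a comparison needed. They were compared because they were high in RT, so these counts are a description. The median log2 ratio over NT was 0.67 in RT1, 1.37 in RT2 and 1.52 in RT3, where the medians of all genes compared were 0.00, -0.04 and -0.06. Cdkn1a, which encodes the cell cycle inhibitor p21, stood at 94.4 CPM in NT and at 875, 1353 and 637 CPM in RT1, RT2 and RT3. Every RT library was far above NT, with log2 ratios of 3.21, 3.84 and 2.75 (mean 3.27 ± 0.55 SD, n = 3), and the lowest bound of their counting intervals was 1.97. At a common depth of 1500 UMIs, 9.09% of NT cells had a Cdkn1a UMI (2 of 22) against 72.0% in RT1, 68.5% in RT2 and 50% in RT3. Shallower cells were left out, 11 in NT and 29, 32 and 4 in RT, and the shares at full depth were 24.2%, 74.7%, 77.1% and 71.4%. In 500 tumor-like cells of each library at the same depth, the shares were 1.6%, 7.8%, 4.8% and 5.6%.

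Mdm2, the ubiquitin ligase that turns over p53, had 38.9 CPM in NT against 177, 183 and 225 CPM in the RT libraries. The mean log2 ratio was 2.32 ± 0.19, and 0.99 when each cell weighed the same. Ccng1 (cyclin G1) had 33.3 CPM in NT against 145, 156 and 137 CPM in RT, which is 2.13 ± 0.09 on the log2 scale. Both were higher in every RT library, and their RT libraries differed little from each other. Phlda3, an inhibitor of Akt signaling, had 27.8 CPM in NT against 63.8, 139 and 118 CPM in RT. Zmat3, an RNA-binding p53 target, had 3 UMIs in NT and 20, 30 and 10 in RT, with log2 ratios of 2.09, 1.76 and 2.56, whose counting intervals began at 0.34, 0.08 and 0.6. It had too few UMIs to be compared once any RT library was left out, or when NT and RT weighed the same in the limit on low counts. Gdf15, a stress-induced hormone, was not seen in NT (0 of 33 cells, which at this depth allows up to 9.09% of cells with a UMI, taken as 3 counts of the total) and had 76, 392 and 9 UMIs in RT. Set against a floor of 3 counts in NT, its log2 ratio was at least 4.01 in RT1, 5.47 in RT2 and 2.40 in RT3. Its UMIs came from 18, 37 and 4 cells, so that it was far less even than Cdkn1a. Of the other p53 targets, Bax, a pore former of apoptosis, had log2 ratios of 0.24, 1.37 and 0.40, and Plk2, a kinase, 0.29, 0.24 and 0.01.

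The promoters of the listed p53 targets were searched for the 10-base p53 half-site on both strands. The search used RefSeq windows of 300 bases (250 before and 50 after a start, build GRCm38.p6). Of all 32851 windows 8.36% held a half-site. The list of 28 genes had windows for 21, and 10 of 30 such windows, of 9 genes, held one. Of the 6 called genes 5 had a window and 3 had a half-site. Stretches of 120 bases around these matches are shown from 5′ to 3′ on the strand of the gene, with the half-sites in capitals. They lie at chr17:29090862-29090981 (plus strand) for Cdkn1a, at chr10:117710880-117710999 (minus strand) for Mdm2 and at chr11:40755407-40755526 (minus strand) for Ccng1. A match is a description of the sequence, and no binding was measured.
Cdkn1a: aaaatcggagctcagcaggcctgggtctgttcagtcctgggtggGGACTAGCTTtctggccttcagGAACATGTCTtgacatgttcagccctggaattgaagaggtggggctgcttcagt
Mdm2: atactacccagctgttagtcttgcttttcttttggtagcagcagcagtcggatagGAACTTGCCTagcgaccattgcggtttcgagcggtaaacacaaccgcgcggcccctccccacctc
Ccng1: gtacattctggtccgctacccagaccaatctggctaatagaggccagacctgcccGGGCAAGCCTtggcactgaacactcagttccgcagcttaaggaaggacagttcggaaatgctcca
The Cdkn1a window held 2 half-sites and the others held 1 each.

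Genes of cell division stood on the other side. All 6 compared members of the G2 and mitosis list, of 26 listed, were below NT in every RT library, against 31.7% of all genes compared, with median log2 ratios of -1.01, -1.32 and -1.23. Birc5, a mitotic inhibitor of apoptosis, went from 211 CPM in NT to 60.2, 58.4 and 39.2 CPM, and Tpx2, a spindle assembly factor, from 128 CPM to 56.7, 43.3 and 58.8 CPM. Both were called lower, where 1.42% of all genes were. Top2a, which untangles chromosomes, had log2 ratios of -0.65, -0.56 and -1.57, and Cdk1, the mitotic kinase, -0.85, -0.99 and -0.66. Of the S phase list 8 of 24 genes were compared and 6 were below NT in all RT libraries, with none past 2-fold throughout. Pcna, the replication clamp, had 533 CPM in NT against 379, 399 and 235 CPM in RT. Stmn1, a tubulin-binding protein of dividing cells, was called lower as well. The other members of both lists had too few UMIs to be compared, which leaves most of the mitotic genes unread in these cells.

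**Figure D3:**
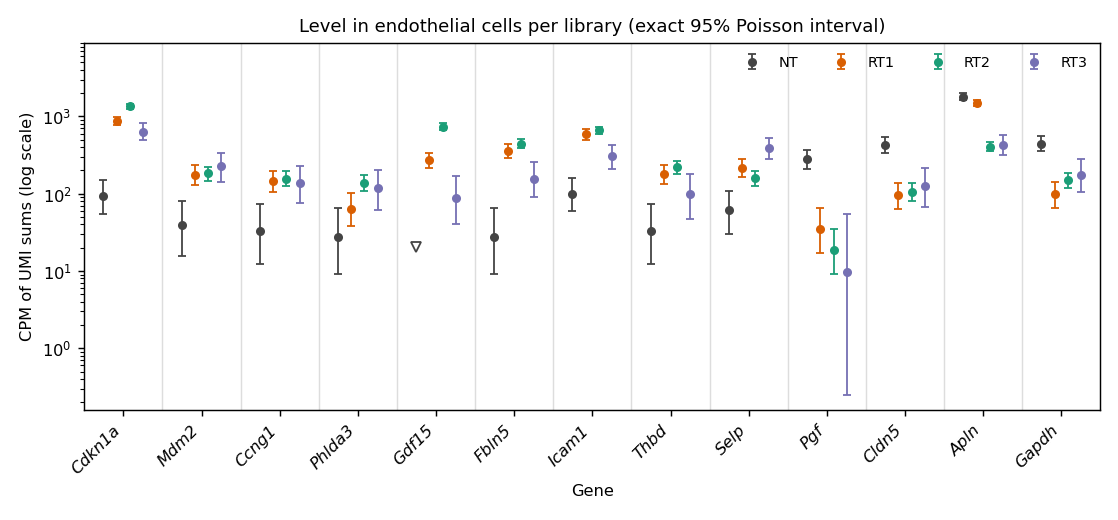
Level in endothelial cells (CPM of UMI sums, log axis) of 13 genes in NT, RT1, RT2 and RT3 (colored points) with exact 95% Poisson intervals (bars). The open triangle is the upper limit of Gdf15 in NT, where no UMI was seen. The RT points lie above NT for the first 9 genes and below it for the last 4.

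Several genes of arterial endothelium were higher in RT. Of 14 listed genes 10 were compared, 4 were called higher (3.69% of all genes), 8 lay above NT in all RT libraries (27.4% of all genes) and none lay below, with median log2 ratios of 2.14, 2.55 and 0.96. Of the 4, Gja5 and Mgp had 0 and 2 UMIs in NT, and the others were Fbln5 and Sema3g. All 4 had fewer NT UMIs than the 10 expected that a comparison needed. They were compared because they were high in RT, so these counts are a description. Among its abundant members were Edn1, the vasoconstrictor endothelin, with 167 CPM in NT against 330, 371 and 715 CPM in RT, and Sox17, an arterial transcription factor, with 189 CPM in NT against 337, 433 and 118 CPM, where RT3 was below NT. Fbln5, an elastic fiber protein, had 27.8 CPM in NT against 358, 443 and 157 CPM in RT, from 4, 30, 35 and 7 cells. At 1500 UMIs a cell the shares of cells with a Fbln5 UMI were 9.09% in NT and 22%, 26.0% and 4.17% in RT, so that RT3 (1 of 24 cells) was not above NT, while at full depth they were 12.1%, 38.0%, 33.3% and 25.0%. Sema3g, a guidance ligand of arterial endothelium, had 50 CPM in NT against 259, 343 and 108 CPM in RT. Gja5 (connexin 40) had no UMI in NT and 28, 124 and 5 UMIs in RT, which is at least 2.57, 3.81 and 1.56 on the log2 scale. All 3 were lowest in RT3 among the RT libraries. They were among the genes that led the arterial-like sub-cluster described below, which held 1 NT cell and 9, 25 and 2 RT cells. The part of these cell numbers in the ratios was not tested. Mgp (matrix Gla protein) had 2 UMIs in NT and 40, 219 and 76 in RT, from 1, 3, 3 and 5 cells, and 1 RT2 cell held 176 of them. Its log2 ratios were 3.67 (counting interval 1.73 to 6.77), 5.22 (3.35 to 8.27) and 6.07 (4.16 to 9.14). The mean of 4.99 ± 1.21 depended on 14 cells that carried pericyte and fibroblast genes. Outside them RT1 had no Mgp UMI, and nearly all RT2 UMIs were those of the 1 cell named above, so no ratio is given there. Cxcl12, a chemokine of arterial cells, had 1, 32, 158 and 1 UMIs and was not called, since RT3 and NT had 1 UMI each. Nts, the neuropeptide neurotensin, had 22.2 CPM in NT against 670, 531 and 402 CPM in RT. It was not on the list but was confined to few cells, 2 in NT and 10, 22 and 2 in RT.

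Venous and capillary genes showed smaller ratios, to be read beside the pan-endothelial medians of 0.44, 0.54 and 0.29. Of 10 compared venous genes 2 were called higher (3.69% of all genes) and 7 lay above NT throughout (27.4%), with medians of 0.70, 0.84 and 0.90. Selp (P-selectin), which catches rolling leukocytes, had 61.1 CPM in NT against 216, 158 and 392 CPM in RT. Within the venous-like cells described below, its ratios were under 2-fold in each RT library. Nr2f2, the factor that sets venous identity, had log2 ratios of -2.23, -1.30 and -0.18. Of 8 compared capillary genes 7 lay above NT throughout (27.4% of all genes), among them Kdr of the selection rule, and Cd300lg, a surface receptor of capillaries, was called, with 38.9 CPM in NT against 269, 435 and 314 CPM in RT. Cd36 and Fabp4, which take up and carry fatty acids, differed between the RT libraries. Cd36 had log2 ratios of 2.28, 3.59 and 0.33, and Fabp4 0.94, 2.82 and 0.20. Meox2, a factor of fatty acid transport in endothelium, had 0.63, 0.80 and 0.78.

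Tip cell genes lay on both sides of NT. Of 18 listed genes 17 were compared, 4 lay above (27.4% of all genes) and 7 below NT (31.7%) in all RT libraries, and the median log2 ratios were 0.13, -0.44 and -0.21. Pgf (placental growth factor), a ligand of VEGF receptor 1, was the single gene called, lower in RT (1.42% of all genes). It had 278 CPM in NT against 35.4, 18.8 and 9.80 CPM in RT. It came from few cells, since 31 of the 50 NT UMIs were in 1 of 9 cells. Apln (apelin) had 1799 CPM in NT against 1503, 407 and 431 CPM in RT. RT1 was thus close to NT, whereas RT2 and RT3 were far below. At 1500 UMIs a cell, 68.2% of NT cells had an Apln UMI against 44.0%, 26.0% and 33.3% in RT, and 4.0%, 4.0%, 2.4% and 2.4% of tumor-like cells had one. At full depth the endothelial shares were 66.7%, 44.3%, 29.5% and 46.4%. Dll4, the Notch ligand of tip and arterial cells, went the other way, with 228 CPM in NT against 560, 584 and 382 CPM in RT. Esm1 had log2 ratios of 0.20, -0.35 and 0.65 and Angpt2, the vessel-destabilizing angiopoietin, 0.83, 0.06 and 1.18.

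The VEGF and angiopoietin receptors were within 2-fold of NT in every RT library. Flt1 had 600 CPM in NT against 875, 1001 and 784 CPM in RT. Kdr, VEGF receptor 2, was used to choose the cells, and its 566 CPM in NT against 712, 825 and 568 CPM in RT are a description. Tek, the Tie2 receptor, had log2 ratios of 0.87, 0.99 and 0.60, and Flt4, VEGF receptor 3, 0.28, 0.16 and 0.01. Of the 14 genes compared on this list of 18, only Pgf was called, and it was lower (1.42% of all genes). Vegfc, a lymphatic growth factor, had 3, 16, 47 and 1 UMIs. On the Notch list none of 7 compared genes was called, where 3.69% of all genes were called higher and 1.42% lower. The medians were 0.39, 0.78 and 0.53. Hey1, a Notch target, had log2 ratios of 1.91, 2.32 and 0.53, and Notch4, an endothelial Notch receptor, 1.43, 1.35 and 0.17. Notch3, a pericyte receptor, followed the pericyte markers instead, with -0.97, -2.66 and 0.61. Of the 10 BMP and TGF-beta genes compared, only Bmpr2, a BMP receptor, was called. It was higher (3.69% of all genes), with log2 ratios of 1.23, 1.38 and 1.35.

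**Figure D4:**
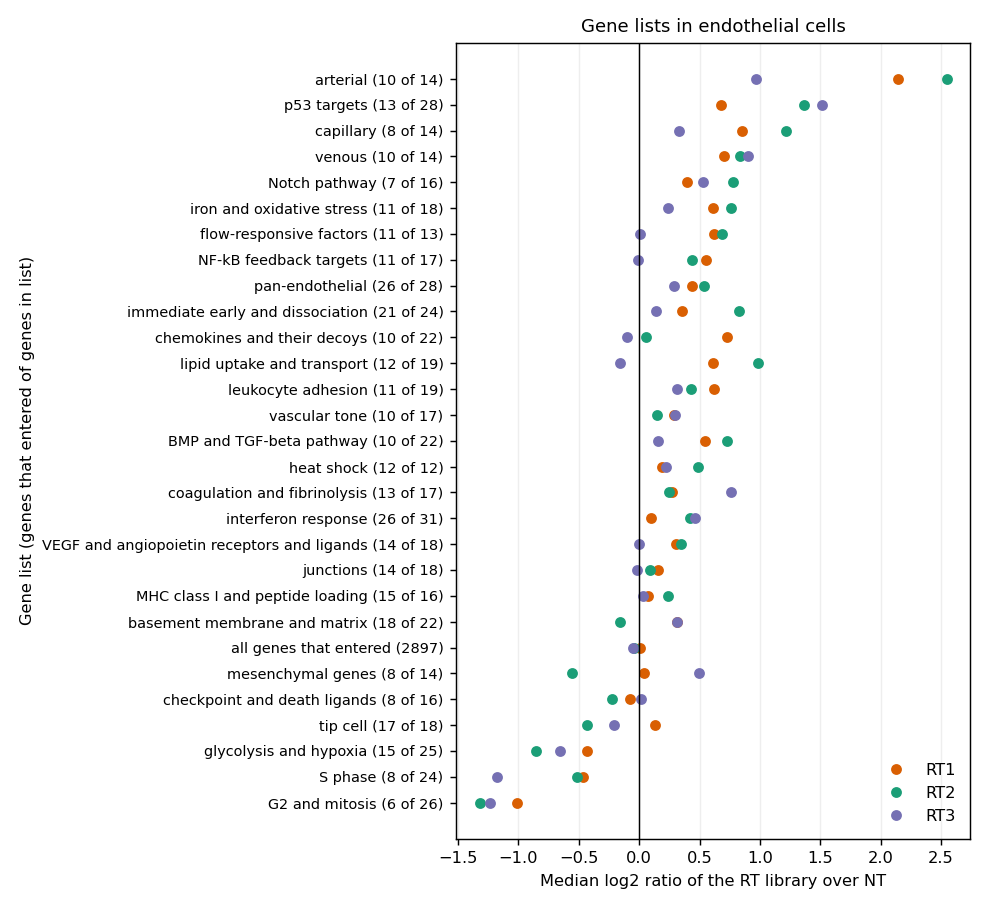
Median log2 ratio over NT (horizontal axis) of the endothelial segment and response lists with at least 5 genes compared, in the endothelial cells of RT1, RT2 and RT3 (colored points), with the number of genes compared in brackets. Lists of other cell types are not drawn. Arterial genes lie at 0.96 to 2.55, p53 targets at 0.67 to 1.52 and G2 and mitosis genes at -1.32 to -1.01, while all genes compared lie near 0. The pan-endothelial list lies at 0.29 to 0.54.

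Molecules that bind leukocytes were examined because vessels are the route of entry into the tumor. Of 11 compared adhesion genes 2 were called higher (3.69% of all genes), 6 lay above NT throughout (27.4%) and 1 below (31.7%). Esam and Cdh5 of the selection rule are on this list, and Esam is one of the 6. Icam1, the ligand of leukocyte integrins, had 100.0 CPM in NT against 585, 659 and 304 CPM in RT, from 7, 33, 57 and 13 cells. Every RT library was above NT, and the log2 ratios were 2.55, 2.72 and 1.6. At 1500 UMIs no NT cell of 22 had an Icam1 UMI, which by the same floor allows up to 13.6% of cells with a UMI at that depth only, against 36.0%, 35.6% and 37.5% of RT cells, and at full depth the shares were 21.2%, 41.8%, 54.3% and 46.4%. Tumor-like cells had it in at most 1.2%. Vcam1 had 222 CPM in NT against 422, 309 and 441 CPM in RT, under 2-fold in each library. Pecam1 had 661 CPM in NT against 1591, 1315 and 823 CPM in RT, past 2-fold in RT1 alone. Cd34 had log2 ratios of -0.14, -0.32 and -0.48 and was the gene below NT throughout.

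Among the chemokines that attract lymphocytes, Cxcl10 was close to NT and Cxcl9 was below it in every RT library by less than 2-fold. Cxcl10 had 3327 CPM in NT against 3289, 3286 and 3528 CPM in RT. Cxcl9 had 2804 CPM in NT against 1648, 2054 and 2450 CPM in RT. The monocyte attractant Ccl2 had 1238 CPM in NT against 1194, 490 and 872 CPM in RT. Its neighbor gene Ccl7 was the single gene called of the 10 compared, higher in RT (3.69% of all genes), with 2, 26, 18 and 20 UMIs. The log2 ratios of Ccl7 were 3.05 (counting interval 1.05 to 6.17), 1.61 (-0.45 to 4.76) and 4.14 (2.10 to 7.28), and it was not compared once any RT library was left out. Il6, an inflammatory cytokine, had 217 CPM in NT against 780, 626 and 216 CPM in RT, so that RT3 equalled NT.

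Interferon-stimulated genes were mixed. Of 26 compared genes 2 were called higher (3.69% of all genes), 11 lay above (27.4%) and 5 below NT (31.7%) in all RT libraries, and the medians were 0.10, 0.42 and 0.47. Ifit1, which binds foreign RNA, had 294 CPM in NT against 808, 682 and 598 CPM in RT. Oasl1, a regulator of Irf7 translation, had no UMI in NT and 36, 86 and 15 UMIs in RT, at least 2.94, 3.28 and 3.14 on the log2 scale, and was compared because it was high in RT. Isg15 was above NT by less, with 294 CPM in NT against 411, 460 and 431 CPM in RT. Gbp2 and Bst2, which are induced by interferon too, lay below NT, with log2 ratios of -0.98, -0.58 and -0.75 for Gbp2 and -1.62, -0.94 and -0.91 for Bst2. All 4 compared MHC class II genes were below NT throughout. H2-Ab1 had 417 CPM in NT against 163, 249 and 225 CPM in RT, and Cd74, the invariant chain, had 106 CPM in NT against 28.4, 77.3 and 58.8 CPM in RT. None of them was called, where 1.42% of all genes were called lower. Of 15 compared MHC class I genes H2-T23, a nonclassical chain, was called higher (3.69% of all genes). Its log2 ratios were 1.48, 1.96 and 1.51.

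Coagulation genes gave 3 higher and 1 lower call among 13 compared, where 3.69% and 1.42% of all genes were called. Thbd (thrombomodulin), an anticoagulant receptor, had 33.3 CPM in NT against 181, 220 and 98.0 CPM in RT. Entpd1 (CD39), which clears extracellular ATP, had log2 ratios of 1.32, 1.42 and 1.38. Plau (urokinase) had 361 CPM in NT against 170, 109 and 78.4 CPM in RT. Flow-responsive factors included Klf4, called higher with 361 CPM in NT against 851, 1181 and 1078 CPM in RT. Its relative Klf2 had 2410 CPM in NT against 2966, 4901 and 2303 CPM in RT. Klf4 is also induced by tissue dissociation, and of 21 compared immediate early and dissociation genes 13 lay above NT throughout (27.4% of all genes), with medians of 0.35, 0.83 and 0.13. The part of dissociation in these levels was not tested.

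Of 14 compared junction genes 1 was called higher (3.69% of all genes), which was Gja5, and 1 lower (1.42%), which was Cldn5. There were 5 above NT throughout (27.4%), Esam and Plvap of the selection rule among them, and 3 below (31.7%). Cldn5 had 428 CPM in NT against 95.7, 106 and 127 CPM in RT, with log2 ratios of -2.16, -2.02 and -1.75. Of the 77 NT UMIs of Cldn5, 31 were in 1 of 12 cells, and without cells of over 3 times the median UMIs the mean log2 ratio was -1.34 in place of -1.98. Most of the compared glycolysis and hypoxia genes lay below NT in every RT library, though their sum in venous-like cells did not, as given below. Of 15 compared genes 11 were below NT throughout (31.7% of all genes), 2 of them called (1.42% of all genes), with medians of -0.44, -0.85 and -0.66. Slc2a1, the glucose transporter, had 128 CPM in NT against 60.2, 56.5 and 49.0 CPM in RT, and Gapdh 444 CPM in NT against 99.2, 149 and 176 CPM. Gapdh has near-identical pseudogenes, so its counts are uncertain. When each cell weighed the same, its mean log2 ratio was -0.86 in place of -1.69. Ndrg1 was the exception, above NT throughout with 2.02, 1.68 and 0.82.

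Of the 12 genes with the largest ratios, several were on none of the lists described so far. In this ranking no UMI in NT was set to the floor of 3, whereas 1 or 2 UMIs were used as they were. Genes with 1 or 2 NT UMIs can therefore rank above genes with none, whose ratios are lower bounds. S100a4, a calcium-binding protein, had 38.9 CPM in NT against 560, 646 and 382 CPM in RT. It was in 90.2% to 97.0% of tumor-like cells at 1500 UMIs, and 1 RT2 cell held 218 of the 343 UMIs of that library. Its mean log2 ratio of 3.73 went to 2.33 when each cell weighed the same. Rhox5, the tumor gene of the rule, had 2, 12, 16 and 2 UMIs in the members, and the part of tumor RNA in S100a4 was not tested. Ucp2, a mitochondrial carrier, had no UMI in NT and 37, 158 and 14 UMIs in RT, from 21, 47 and 9 cells, at least 2.98, 4.16 and 3.04 on the log2 scale. Without cells of over 3 times the median UMIs their mean went from 3.39 to 2.16. Hdc, which makes histamine, had 1, 27, 62 and 19 UMIs, with log2 ratios of 4.11 (counting interval 1.51 to 9.46), 4.39 (1.86 to 9.72) and 5.07 (2.41 to 10.44). Without cells with a Rhox5 UMI NT had none left, and the mean against the floor was at least 2.95. It is on the neutrophil list, whose other 7 genes had at most 5 UMIs in a library. Ccnd2 (cyclin D2) had 22.2 CPM in NT against 174, 228 and 304 CPM in RT, and 1 RT3 cell held 23 of 31 UMIs. Its mean log2 ratio of 3.37 went to 2.38 without cells of over 3 times the median UMIs. It was 2.56 without the sub-cluster of cells with pericyte and fibroblast genes, and 2.63 without cells with a Rhox5 UMI. At 1500 UMIs, 19.6% to 23.4% of tumor-like cells had a Ccnd2 UMI. Lgals3 (galectin-3) had 1, 16, 46 and 6 UMIs, and without cells with a Rhox5 UMI NT had none left, so that its mean log2 ratio was at least 1.77.

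Of the 12 genes with the smallest ratios, Serpinb1a, a protease inhibitor, had 333 CPM in NT against 42.5, 43.3 and 29.4 CPM in RT. Lcp2, a signaling adaptor best known in leukocytes, had 189 CPM in NT against 39.0, 47.1 and 9.80 CPM in RT. Rgs16, which shortens G protein signals, had 367 CPM in NT against 113, 39.6 and 157 CPM in RT. Eif5a, a translation factor, had 522 CPM in NT against 131, 149 and 255 CPM in RT. Ewsr1, Cnn2 and Sf3b5 completed the set, with mean log2 ratios of -2.52, -1.69 and -1.64. That of Ewsr1 rested partly on RT3, which had 1 UMI, and was -1.56 without it. That of Cnn2 was -0.91 when each cell weighed the same, and Sf3b5 had too few UMIs to be compared without RT1 or without RT2.

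The remaining lists gave few calls. Of 18 compared genes of basement membrane and matrix, Mgp and Mmrn2 were called higher (3.69% of all genes), the former with the limits given above. The most abundant, Igfbp7, had 12068 CPM in NT against 16249, 15139.5 and 19237 CPM in RT, and Col4a2, a chain of the vessel basement membrane, had 2138 CPM in NT against 4614, 3237 and 3489 CPM in RT. None of 12 heat shock genes, 12 lipid genes, 10 vascular tone genes and 8 checkpoint and death ligand genes was called. Over all genes 3.69% were called higher and 1.42% lower. Cav1, the coat protein of caveolae, had 1822 CPM in NT against 1708, 982 and 813 CPM in RT. Among NF-kB feedback targets, 11 of which were compared, Icam1 alone was called, higher in RT (3.69% of all genes). Nfkbia, the inhibitor of NF-kB, had 1527 CPM in NT against 3179, 2638 and 2519 CPM in RT. Of 11 compared iron and oxidative stress genes only Ftl1, the ferritin light chain, was called, and it was lower (1.42% of all genes). Fth1, the heavy chain, had 999.6 CPM in NT against 2148, 1698 and 1372 CPM in RT. Vim, the intermediate filament protein vimentin, led the mesenchymal list with 9974 CPM in NT against 8785, 8590 and 8349 CPM in RT. S100a4 was the single member called of 8 compared, higher in RT (3.69% of all genes).

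Clustering divided the endothelial cells into 4 sub-clusters. Sub-cluster 1 (112 cells) was venous-like, led by Slco2a1, Selp, Aplnr, Ubd, Fabp4, Xdh, Hdc, Enc1, Col13a1 and Cd274, with 13 of 14 venous and 10 of 14 capillary markers above the other cells. Sub-cluster 2 (82 cells) was tip-like, led by Chga, Pgf, Apln, Chst1, Cxcr4, Myh10, Egln3, Prnd, Lcp2 and Tnc, with 17 of 18 tip markers higher. Sub-cluster 3 (37 cells) was arterial-like, led by Gja5, Mal, Nts, Gja4, Fbln5, Slc45a4, Smpdl3a, Vegfc, Sema3g and Tmem100, with all 13 arterial markers higher. The remaining 14 cells carried pericyte and fibroblast genes and were too few to describe further. These genes defined the clusters and are no result.

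Several of those genes also differed between NT and RT, so sizes were compared after leaving out of the clustering the p53 targets and 438 genes at least 1.5-fold on 1 side of NT in every RT library. These include 5 genes whose NT count and lowest RT count were both at or under the floor and which are not counted as calls. A tip-like cluster of 78 cells returned, and 67 of them were cells of the first tip-like cluster. It held 51.5% of NT cells (exact 95% interval 33.5 to 69.2), 43.0% in RT1 (31.9 to 54.7), 21.0% in RT2 (13.6 to 30.0) and 17.9% in RT3 (6.06 to 36.9). The RT mean was 27.3% ± 13.7 (SD, n = 3). All RT libraries were below NT, but the intervals of RT1 and of RT3 overlapped with that of NT. Venous-like and arterial-like cells merged into 1 cluster of 151 cells, with 36.4% of NT cells and 48.1%, 77.1% and 71.4% of RT cells. With all clustering genes the tip-like shares were 66.7%, 41.8%, 18.1% and 28.6%, and the arterial-like cluster had 1 NT cell and 9, 25 and 2 RT cells.

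**Figure D5:**
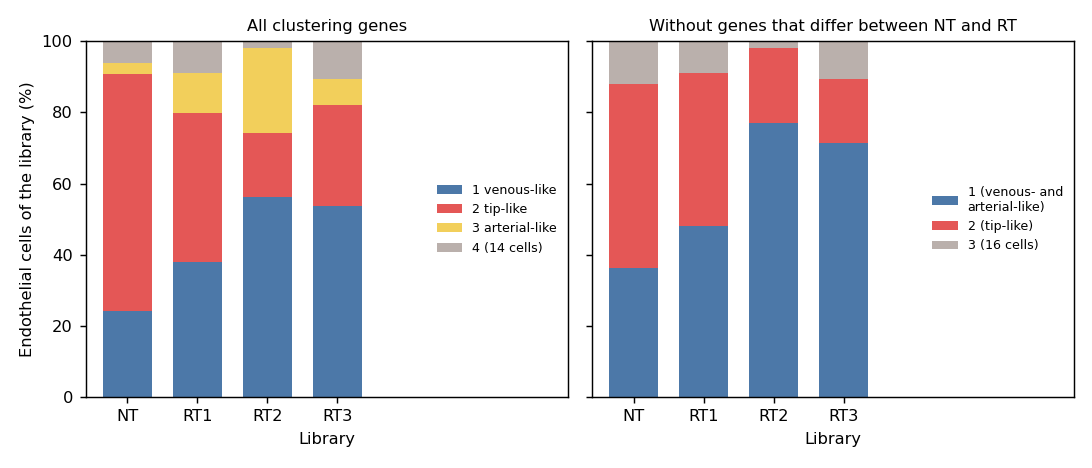
Percent of the endothelial cells of each library (bars) in each sub-cluster, clustered with all clustering genes (left) and without the 438 genes that differed between NT and RT (right). The tip-like part is largest in NT in both panels, 66.7% and 51.5%.

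Levels were then read within sub-clusters. Cdkn1a was higher in RT within both larger sub-clusters. In venous-like cells it had 98.0 CPM in NT (8 cells) and 1214, 1520 and 760 CPM in RT, and in tip-like cells 105 CPM in NT (22 cells) and 803, 943 and 271 CPM in RT. Summed p53 targets had 1764 CPM in NT against 5256, 5648 and 4265 CPM in RT in venous-like cells, and 2198 CPM against 3568, 4902 and 3611 CPM in tip-like cells. Glycolysis and hypoxia genes summed to 3968 CPM in NT and 3631, 3920 and 4402 CPM in RT in venous-like cells, on both sides of NT, and to 7625 CPM against 7010, 4690 and 4649 CPM in tip-like cells. G2 and mitosis genes summed to 1509 CPM in NT and 1523, 460 and 812 CPM in RT in tip-like cells, where RT1 was not below NT, and to 1445 CPM against 190, 663 and 487 CPM in venous-like cells. For Icam1 the segments were not alike, a difference that was not tested. In venous-like cells it had 122 CPM in NT against 1235, 705 and 253 CPM in RT, but in tip-like cells 81.1 CPM in NT against 73.0, 130 and 542 CPM in RT. Selp, among the genes that led the venous-like cluster, had 269 CPM in NT there against 496, 271 and 506 CPM in RT. It was thus under 2-fold in each RT library. In tip-like cells Selp had 0, 3, 1 and 8 UMIs. Pgf and Apln were among the genes that led the tip-like cluster. Within its cells Pgf was lower in RT, with 406 CPM in NT against 83.5, 94.3 and 45.1 CPM in RT. Apln was not lower throughout, with 2523 CPM in NT against 3349, 2062 and 1219 CPM in RT. The whole tip cell list was not lower in tip-like cells. It summed to 15176 CPM in NT against 21531, 19089 and 15346 CPM in RT, where RT3 was close to NT. Pericyte and smooth muscle markers in these cells summed to 1176 CPM in NT against 261, 153 and 45.1 CPM in RT. The part of pericyte RNA in the level of Pgf was not tested. Cldn5 was lower in tip-like cells, with 616 CPM in NT against 73.0, 295 and 90.3 CPM in RT. In venous-like cells it lay above NT, with 24.5 CPM in NT against 73.9, 84.6 and 195 CPM in RT. These were 1, 7, 24 and 10 UMIs. Arterial-like cells were not compared, since NT had 1. Arterial genes summed to 784 CPM in NT against 1742, 1717 and 1655 CPM in RT in venous-like cells, from 32 NT UMIs. In tip-like cells they summed to 592 CPM in NT against 1085, 860 and 2076 CPM in RT.

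The p53 targets were also read in other populations of the same libraries, which share the tumors and were not tested against the endothelial cells. Cdkn1a had log2 ratios of 2.17, 2.73 and 2.14 in macrophage-like cells and 1.15, 0.78 and 0.79 in tumor-like cells, beside 3.21, 3.84 and 2.75 in endothelial cells. Fibroblast-like cells had 2 UMIs of Cdkn1a in NT and 114, 303 and 239 in RT. Their total UMIs were 127532 in NT and 342323, 466792 and 687812 in RT. Each ratio was thus larger than in endothelial cells, though the NT level rested on 2 UMIs. The list medians were 0.52, 0.99 and 0.59 in fibroblast-like cells (1 of 7 compared genes called higher, beside 142 of 1994 over all genes), 0.47, 0.74 and 0.77 in macrophage-like cells (5 of 23, beside 303 of 8878) and -0.01, 0.03 and 0.10 in tumor-like cells (2 of 25, beside 501 of 12704). In tumor-like cells Gdf15 had 13.4 CPM in NT against 13.0, 18.0 and 13.5 CPM in RT, and in macrophage-like cells 288 CPM in NT against 312, 481 and 550 CPM in RT. G2 and mitosis genes had medians of -1.84, -2.16 and -1.89 in macrophage-like cells and -0.16, -0.92 and -0.19 in tumor-like cells. Different genes passed the count limit in each population, and the deeper populations entered more of them.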

How the data were processed

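Libraries were made with a SeekOne MM 3′ kit. The values deposited are raw UMI counts, not normalized, in a matrix for each library. The study's methods name the SeekOne Tools pipeline for the matrices. The submitters' processing notes name STAR 2.5.1b, Subread 1.6.4, featureCounts and Cell Ranger with builds GRCm39 and mm39, whose part in these tables is not given in the sources used here. The RT2 table gave symbols only (18605 genes against 32285) and reached 11.95% mitochondrial UMIs, so it may have been filtered further. Libraries were joined on symbols. Barcodes needed at least 200 genes and no more than 20% mitochondrial UMIs. The members, gene lists and rules were chosen with earlier results of these data known.

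UMIs were summed per library. A gene was compared when its sum was at least 50 and the count expected in NT from the pooled share at least 10. A count of 0 was set to a floor of 3 per library. A gene was called at a log2 ratio of at least 1 in the same direction in every RT library. Fibroblast-like cells had at least 10 UMIs of at least 3 collagen and stromal genes, macrophage-like cells at least 6 C1q UMIs and tumor-like cells at least 3 Rhox5 UMIs. Sub-clusters came from the Leiden algorithm (leidenalg 0.10.2, resolution 0.5, 1500 variable genes, 20 components, 15 neighbors). Named genes were drawn from the 12 largest and 12 smallest ratios among calls without ribosomal and predicted genes, the 4 most abundant of each list, the called members of 5 lists, the top 10 of each sub-cluster and the 12 most restricted genes, and others are list members named to fill out their list, chosen after their values were seen. The call rule was tested on simulated data, where the limit on low counts let in fewer of the lower than of the higher genes. Shares used scipy 1.17.1. Promoters came from RefSeq (GRCm38.p6), another build than that of the notes, and serve only for sequence.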

Additional observations from a re-analysis of the deposited data

Results flagged for a closer look

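Some gene lists had median log2 ratios of RT over NT on 1 side of 0 in every RT library in endothelial cells and on the other side in every RT library in another population. None of these differences was tested, and the populations share the same 4 libraries.

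Against macrophage-like cells, the medians over list members were 0.57 in endothelial cells and -0.12 in macrophage-like cells for the Notch pathway, 0.32 and -0.08 for the BMP and TGF-beta pathway, 0.32 and -0.71 for vascular tone, and 0.30 and -0.73 for heat shock genes. Against tumor-like cells, they were 0.57 and -0.30 for the Notch pathway. For the BMP and TGF-beta pathway they were 0.32 and 0.02 over the mean ratios, although the medians of the single RT libraries were -0.00, -0.11 and -0.10 in tumor-like cells. Against fibroblast-like cells, heat shock genes had 0.30 and -0.28.

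The genes compared differed between the populations, with 7 Notch genes in endothelial cells, 6 in macrophage-like cells and 9 in tumor-like cells. The endothelial medians of the BMP and TGF-beta and vascular tone lists changed sign under 1 setting each, given with the other settings.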

How the results depend on the processing

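The count of higher genes was 107 and that of lower genes 41. Leaving out 1 RT library gave 65 to 187 higher and 45 to 71 lower genes. The counts were 68 and 13 without cells of over 3 times the median UMIs, 201 and 62 as a mean over cells, 233 and 229 with no filter on low counts, 32 and 12 at an expected NT count of 30, and 250 and 183 at a fold of 1.5. With intervals apart 33 genes were higher, and with an entry limit that weighed NT and RT equally 65 were lower, a setting chosen after seeing the data. The gene lists on 1 side of NT in every RT library numbered 16 of 23, each with at least 5 compared genes. Of 244 values of these lists 6 changed sign: BMP and TGF-beta (-0.23 as a mean over cells), leukocyte adhesion (-0.038 with no filter), vascular tone (-0.18 at an expected count of 30), interferon response (-0.10 without cells with mural or fibroblast RNA) and MHC class I (-0.066 to 0.077 when 1 RT library was left out, negative without RT2, and -0.0020 at a mitochondrial limit of 10%). The causes were not tested. For the G2 and mitosis and S phase lists 12 values are missing for lack of compared genes, those without RT2 among them. None of 425 values of 31 named genes changed sign, 46 moved by more than the SD of the RT libraries, and 71 further values are missing because the gene had too few UMIs under that setting, among them those of Zmat3 and Ccl7 whenever 1 RT library was left out. At resolution 0.3 there were 2 sub-clusters. The difference in endothelial share stayed between 0.025 and 0.28 percentage points and moved by less than the SD of the RT libraries. No paired analysis was possible because NT has 1 library, so that the groups share fewer than 2 replicate numbers. With 33 cells in NT, depth limits every gene near 10 UMIs.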

Other observations

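The 107 higher and 41 lower genes held further genes not described above, chosen here after their values were seen. Epas1, the hypoxia-inducible factor that endothelium expresses constitutively, was called higher, as were the homeobox gene Hhex and Ebf1, a factor of stromal and B cells. Ptprb, the phosphatase that restrains Tie2, had 167 CPM in NT against 425, 505 and 500 CPM in RT. Mmrn2, a matrix protein of vessels named above, had 389 CPM in NT against 861, 1112 and 1107 CPM. Tsc22d3, a glucocorticoid-induced gene, and the complement gene Cfb were called higher too.

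Hemoglobin RNA appeared in RT2 alone, where Hbb-bs had 71 UMIs, Hba-a1 24 and Hba-a2 18, each in 1 cell, and the other 3 libraries had none. Pparg, a lipid-handling factor, had 2 UMIs in NT, 28 in RT1, 40 in RT2 and 0 in RT3.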
